A study of Homo sapiens with 2 samples.

Results

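The proteins described here belong to families of RNA processing and RNA decay. They are the Sm and LSm proteins, the proteins specific to single spliceosomal snRNPs, and the subunits of the RNA exosome. Members were chosen by symbol, as every row of the deposited gene table whose name begins with LSM and a digit, SNRP, SNRNP or EXOSC. This gave 42 of 12075 listed genes: 8 Sm, 13 LSm, 11 snRNP-specific and 10 exosome genes.

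RNA-seq was made from LNCaP, an androgen-sensitive human prostate cancer line from a lymph node metastasis, with 1 library per group. The cells of the first library had received the CM of M2 macrophages labelled oe-YY1, and those of the second that of nc-YY1 M2 macrophages. They are called the oe and the nc library here. Both libraries share the genotype label WT, the time label Day 0, RPMI medium with fetal bovine serum and antibiotics, and a treatment label that ends in the word cocultured. The labels spell out neither oe, nc nor CM, and they do not say whether macrophages were in the dish. An adipogenic protocol with insulin that stands in both labels does not describe a prostate line and was not used. Values are FPKM, in which fragments are divided by transcript length and by library size, and the read depth behind them is unknown. With 1 library per group no difference has a replicate check, no test could be made, and every count below describes these 2 libraries only.

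As background, 7 different Sm proteins close into a ring around the U1, U2, U4 and U5 small nuclear RNAs (snRNAs), and each snRNP then adds proteins of its own that recognise splice sites or remodel the spliceosome. LSm proteins form sister rings of 7. LSM2 to LSM7 are shared, LSM8 completes the nuclear ring on U6 snRNA, and LSM1 completes the cytoplasmic ring that promotes mRNA decapping. The exosome, a barrel of 6 subunits with a cap of 3, threads RNA to nucleases that trim or destroy it from the 3′ end. Cells that grow and divide need all of these machines in quantity.

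Most members were lower in the oe library. The log2 ratio used throughout subtracts log2(FPKM + 1) of the nc library from that of the oe library, so a negative value means lower in the oe library. Of the 42 members, 41 reached 1 FPKM in the higher library and were counted. LSM11 did not. Of the 41, 38 had a negative log2 ratio, against 50.8% of all 11126 genes counted. 19 were at least 1.5-fold lower and 0 higher by that much, against 15.2% lower and 15.3% higher among all genes. 4 were at least 2-fold lower and 0 higher by that much, against 5.83% and 6.46% of all genes. The median log2 ratio was -0.56 over the members and -0.01 over all genes. With the libraries scaled to the same FPKM sum, 13 members were at least 1.5-fold lower and 1 higher, beside 11.8% and 18.8% of all genes. Centred on genes of like coding length and level, 6 members were at least 1.5-fold lower (14.6%), beside 12.6% of all genes, as described further on. The 42 genes kept nearly the same order of level in both libraries (Spearman rho 0.93 across 42 genes of 1 cell line, as a description).

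**Figure D1:**
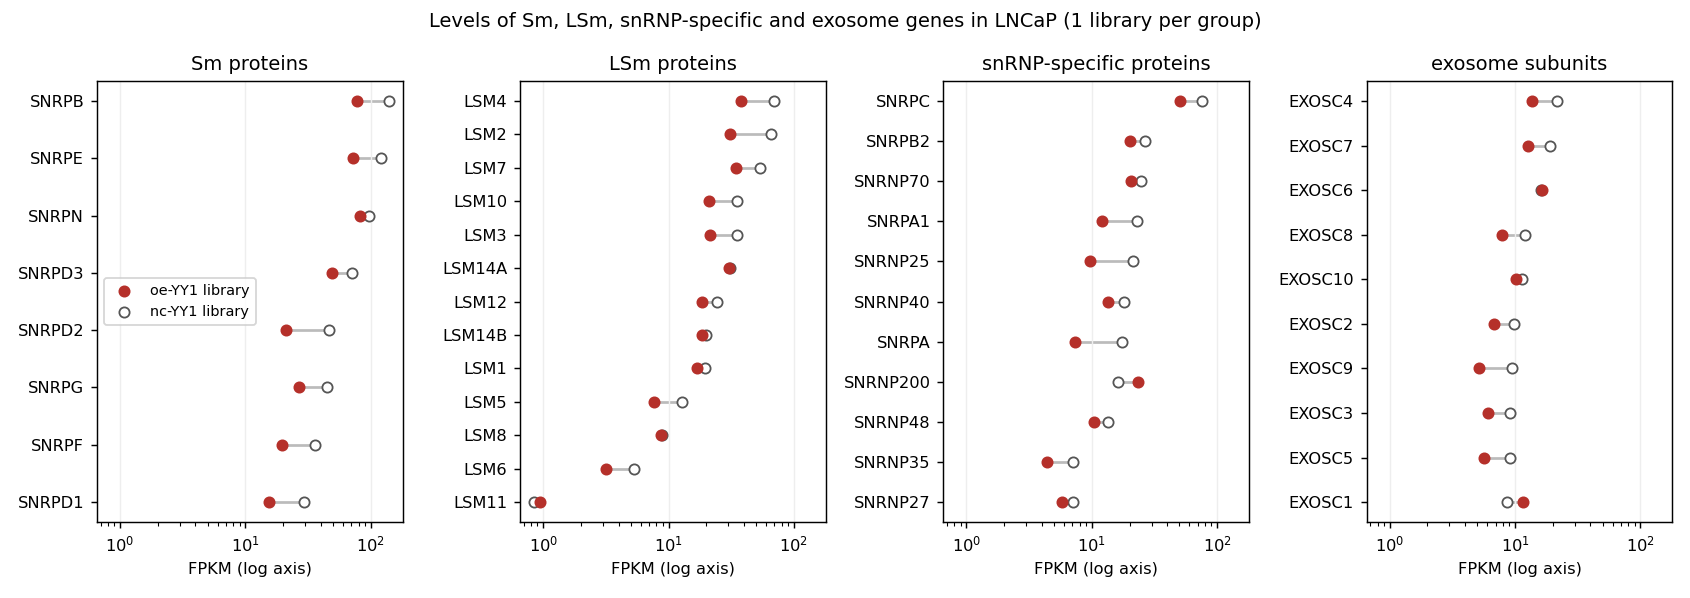
FPKM of each member on a log axis, in the oe library (filled red) and the nc library (open grey), joined by a line, in 4 panels by group with members ordered by their nc value. Most red points lie left of their open partner, while SNRNP200, EXOSC1 and, under 1 FPKM, LSM11 lie right of it and LSM8, LSM14A and EXOSC6 lie almost on it.

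The 4 members at least 2-fold lower came from the Sm, LSm and snRNP-specific groups. SNRPA, an RNA-binding protein of U1 (ENSG00000077312.8_3, chromosome 19, 41256542 to 41271294, plus strand), had 7.28 FPKM in the oe library and 17.3 FPKM in the nc library, a log2 ratio of -1.14. SNRPD2, the SmD2 ring protein (ENSG00000125743.10_2, chromosome 19, 46190712 to 46195827, minus strand), had 21.2 and 46.5 FPKM in the oe and nc libraries, a log2 ratio of -1.10. Both lay among the lowest ratios of the table, since 4.33% of all genes had a lower ratio than SNRPA and 4.74% a lower one than SNRPD2. SNRNP25, a protein of the U11/U12 particle of the minor spliceosome (ENSG00000161981.10_2, chromosome 16, 103010 to 107669, plus strand), had 9.60 FPKM in the oe library and 21.5 FPKM in the nc library, a log2 ratio of -1.08. LSM2, a shared LSm ring subunit (ENSG00000204392.10_2, chromosome 6, 31765173 to 31774761, minus strand), had 30.9 and 66.1 FPKM in the oe and nc libraries, a log2 ratio of -1.07. Coordinates are those of the deposited table, whose identifiers point to GRCh37. SNRPA and LSM2 shared neither particle nor level, and their log2 ratios lay within 0.1 of each other.

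Promoter sequence just upstream of these 4 genes is shown beside that of LSM8 and SNRNP200, members of the same families with log2 ratios of -0.02 and 0.51. Each line gives the 100 bases before the most upstream RefSeq start, 5′ to 3′ on the strand of the gene, from GRCh38.p14. Capitals mark the GC box GGGCGG, the CCAAT box CCAAT or the ETS motif CCGGAAG, on either strand.
SNRPA, chr19:40751103-40751202, plus strand: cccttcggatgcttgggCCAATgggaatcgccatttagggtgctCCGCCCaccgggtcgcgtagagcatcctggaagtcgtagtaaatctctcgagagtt
SNRPD2, chr19:45692317-45692416, minus strand: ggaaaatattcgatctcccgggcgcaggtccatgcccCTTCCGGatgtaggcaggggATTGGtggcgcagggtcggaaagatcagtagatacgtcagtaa
SNRNP25, chr16:53728-53827, plus strand: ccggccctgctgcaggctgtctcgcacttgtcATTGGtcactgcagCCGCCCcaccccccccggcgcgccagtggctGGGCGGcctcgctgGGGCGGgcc
LSM2, chr6:31806967-31807066, minus strand: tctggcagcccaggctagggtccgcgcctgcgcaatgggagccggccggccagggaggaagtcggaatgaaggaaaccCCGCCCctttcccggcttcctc
LSM8, chr7:118184064-118184163, plus strand: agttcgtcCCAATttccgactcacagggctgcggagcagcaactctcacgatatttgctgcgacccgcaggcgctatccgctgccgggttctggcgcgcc
SNRNP200, chr2:96305547-96305646, minus strand: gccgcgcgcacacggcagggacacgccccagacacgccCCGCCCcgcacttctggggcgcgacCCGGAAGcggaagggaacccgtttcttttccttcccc

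The capitals do not divide these promoters by direction, since a CCAAT box stands in SNRPA, SNRPD2 and SNRNP25 and also in LSM8, and a GC box stands in SNRPA, SNRNP25 and LSM2 and also in SNRNP200. RefSeq gave 46 promoter entries for 35 members, several of them overlapping starts of 1 gene, and the 250 bases before each start were searched on both strands. The ETS motif was in 13 of 46 entries (28.3%, against 14.7% of 13537 entries of listed genes) and the CCAAT box in 18 (39.1% against 33.3%). The GC box was in 25 entries (54.3% against 63.9%), and the E-box CACGTG in 2 (4.35% against 8.495%). The E2F motif GCGGGAA, which can overlap a GC box, was in 4 (8.70% against 8.44%). The motif CCATNTT of YY1, the factor that the labels place in the macrophages, was in 6 entries (13.04% against 9.46%). By gene, it was in 1 of the 16 members with an entry that were at least 1.5-fold lower and in 5 of the other 19. For the GC box the same counts were 9 of the 16 and 15 of the 19, and for the CCAAT box 10 and 8. They were 6 and 5 for the ETS motif, 3 and 1 for the E2F motif and 1 and 1 for the E-box. These are matches of letters and not binding sites.

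Among the Sm proteins, 6 of 8 were at least 1.5-fold lower (75%, against 15.2% of all genes) and the median log2 ratio was -0.78. SNRPB, which encodes SmB and was the most abundant member in the nc library, had 78.1 FPKM in the oe library and 139.7 FPKM in the nc library (log2 ratio -0.83). SNRPE (SmE) followed at 71.9 and 120.2 FPKM in the oe and nc libraries (-0.73). The ring genes of lower level were as far apart. SNRPD1 (SmD1) had 15.4 FPKM in the oe library and 29.2 FPKM in the nc library (-0.88). SNRPF (SmF) had 19.7 and 36.0 FPKM in the oe and nc libraries (-0.84), and SNRPG (SmG) had 26.8 and 44.9 FPKM (-0.72). SNRPD3 (SmD3) was the ring gene that differed least, at 49.0 FPKM in the oe library and 70.5 FPKM in the nc library (-0.52), short of 1.5-fold. FPKM of the 7 ring genes summed to 282 in the oe library and 487 in the nc library. Levels within the ring were uneven in both, with the highest gene 5.07 times the lowest in the oe library and 4.78 times in the nc library, although the proteins are used in equal numbers.

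SNRPN stood apart from SNRPB, the gene it resembles most. It encodes SmN, a close relative of SmB known from brain, in an imprinted region of chromosome 15. SNRPN had 82.2 FPKM in the oe library and 97.3 FPKM in the nc library (log2 ratio -0.24). It was thus 1.05 times the level of SNRPB in the oe library and 0.696 times in the nc library, a ratio that no scaling of the libraries can alter. SNURF, which lies in the same locus on the same strand, had 26.6 FPKM in the oe library and 18.6 FPKM in the nc library, so reads of SNRPN may be divided with it, and those of SNRPN and SNRPB may be mixed through their similar coding sequences. Named pseudogenes are a second source of uncertainty for this family, with 20 for SNRPG, 11 for SNRPE and 20 for SNRPC in RefSeq. Overlapping genes are a further one, since 4 members overlap a listed gene on the same strand (SNRPN, SNRPD3, SNRNP27 and EXOSC7) and 13 on the opposite strand, SNRPA and SNRPD2 among them. How such reads were counted was not given in the sources used here.

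LSm ring genes separated by subunit type. All 6 shared subunits, LSM2 to LSM7, were at least 1.5-fold lower, against 15.2% of all genes, with a median log2 ratio of -0.68. Neither of the 2 subunits that give a ring its place was lower by that much. LSM4 had 38.1 FPKM in the oe library and 69.6 FPKM in the nc library (-0.85). LSM7 had 34.4 and 53.9 FPKM in the oe and nc libraries (-0.63), and LSM3 had 21.5 and 34.9 FPKM (-0.67). LSM5, at 7.62 and 12.8 FPKM in the oe and nc libraries (-0.68), and LSM6, at 3.15 and 5.30 FPKM (-0.60), were the least abundant shared subunits, and the most abundant, LSM4 and LSM2, had the lowest ratios. LSM6 lay just past 1.5-fold, and with the libraries scaled to the same FPKM sum LSM3, LSM5, LSM6 and LSM7 were short of it.

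LSM1, the cytoplasmic subunit of the decapping ring, had 16.7 FPKM in the oe library and 19.7 FPKM in the nc library (log2 ratio -0.22). LSM8, the nuclear subunit of the U6 ring, had 8.75 and 8.87 FPKM in the oe and nc libraries (-0.02), a ratio whose sign turned under 3 of the other scalings and centrings tried. Relative to the median of the shared subunits, LSM1 was 0.637 in the oe library and 0.444 in the nc library, and LSM8 was 0.334 in the oe library and 0.200 in the nc library. LSM1 to LSM8, the ratio between both ring types, was 1.91 in the oe library and 2.22 in the nc library. These ratios are within a library and hold under any scaling.

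Among the LSm proteins outside these rings, LSM10 and LSM11 take the place of SmD1 and SmD2 in the U7 snRNP, which processes the 3′ ends of histone mRNAs. LSM10 had 21.2 FPKM in the oe library and 35.4 FPKM in the nc library (log2 ratio -0.71). LSM11 had 0.935 and 0.843 FPKM in the oe and nc libraries, under the limit of 1 FPKM in both, so its ratio was not counted. The remaining 3 were all short of 1.5-fold. LSM12 had 18.6 FPKM in the oe library and 24.6 FPKM in the nc library (-0.38). LSM14A, a P-body protein of translational repression, had 30.6 and 31.1 FPKM in the oe and nc libraries (-0.03), and its relative LSM14B had 18.5 and 20.05 FPKM (-0.11). The signs of LSM14A and LSM14B turned under some scalings.

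**Figure D2:**
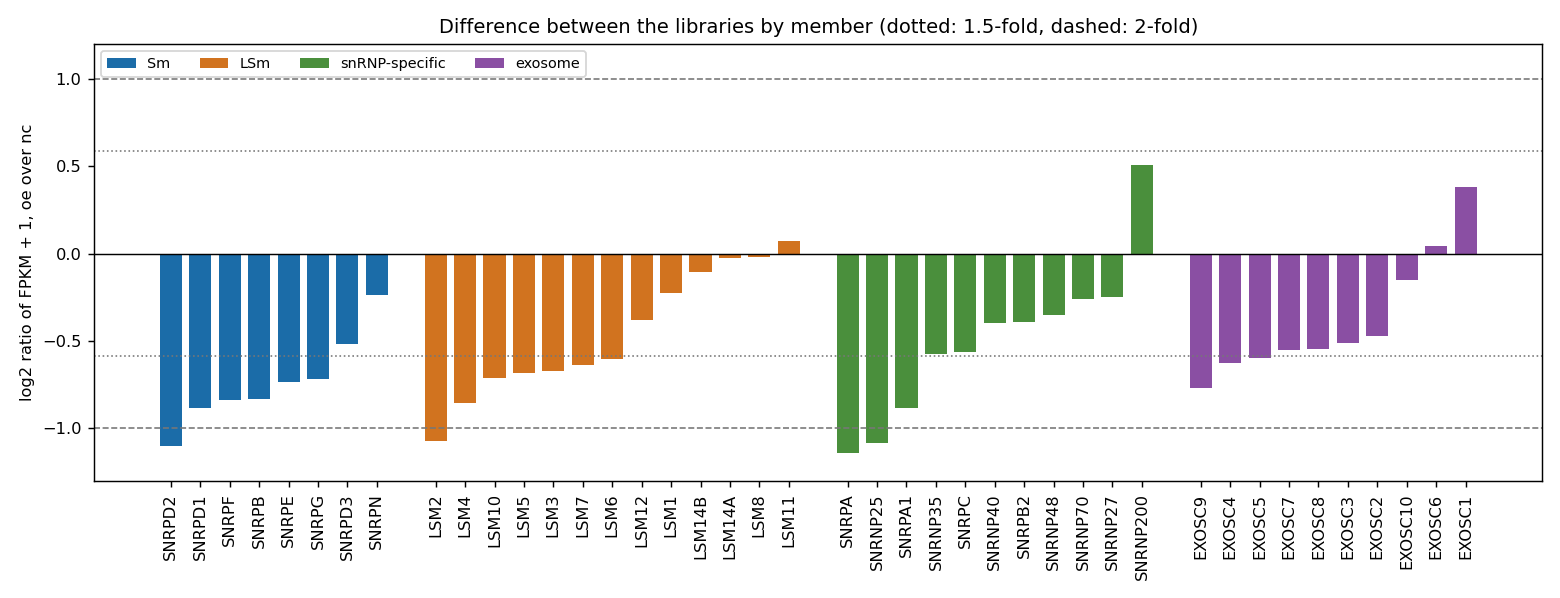
Log2 ratio of FPKM + 1, oe over nc, for each member, as bars ordered within the 4 groups, with dotted lines at 1.5-fold and dashed lines at 2-fold. The Sm ring genes and LSM2 to LSM7 lie at -0.52 or lower, LSM1 at -0.22 and LSM8 at -0.02, and no bar passes 1.5-fold in the positive direction.

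The snRNP-specific proteins had the widest range of log2 ratios among the 4 groups. 3 of 11 were at least 1.5-fold lower (27.3%, against 15.2% of all genes) and 0 higher by that much. The median log2 ratio was -0.40. In U1, which pairs with the 5′ splice site, the members differed from each other. SNRPA has been given above (-1.14). SNRPC, a zinc-finger protein of U1 and the most abundant gene of the group, had 50.7 FPKM in the oe library and 75.3 FPKM in the nc library (-0.56), just short of 1.5-fold. SNRNP70 (U1-70K) had 20.6 FPKM in the oe library and 24.8 FPKM in the nc library (-0.26). SNRPA was therefore 0.354 of SNRNP70 in the oe library and 0.696 of it in the nc library.

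U2, which recognises the branch point, showed a smaller division of the same kind. SNRPA1, a leucine-rich repeat protein, had 12.1 FPKM in the oe library and 23.2 FPKM in the nc library (log2 ratio -0.88), while its binding partner SNRPB2 had 20.2 and 26.8 FPKM in the oe and nc libraries (-0.39). The SNRPA1 level was 0.598 of that of SNRPB2 in the oe library and 0.863 in the nc library. SNRPB2 and SNRPA are closely related RNA-binding proteins, and SNRPA was 0.360 of SNRPB2 in the oe library and 0.644 in the nc library.

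In U5 and the tri-snRNP, SNRNP200 had a ratio of the opposite sign to most members. It encodes the helicase Brr2, which unwinds U4 from U6 when the spliceosome is activated (ENSG00000144028.14_2, chromosome 2, 96940074 to 96971253, minus strand). SNRNP200 had 23.5 FPKM in the oe library and 16.2 FPKM in the nc library, the highest log2 ratio of all members at 0.51, and 82.1% of all genes had a lower ratio. It was short of 1.5-fold, and past it at 0.63 with the libraries scaled to the same FPKM sum and at 0.69 centred on genes of like level. SNRNP200 is the longest member (6408 coding bases), and centred on genes of like coding length and level its ratio was 0.35, short of 1.5-fold. SNRNP40, a WD-repeat protein of U5, had 13.4 FPKM in the oe library and 18.0 FPKM in the nc library (-0.40). SNRNP200 was thus 1.75 times SNRNP40 in the oe library and 0.899 times in the nc library. SNRNP27 had 5.75 FPKM in the oe library and 7.02 FPKM in the nc library (-0.25). Its locus overlaps MXD1 on the same strand, which had 4.91 and 0.357 FPKM in the oe and nc libraries.

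The U11/U12 particle serves the rare minor introns. Beside SNRNP25, SNRNP35, the counterpart of U1-70K, had 4.43 FPKM in the oe library and 7.07 FPKM in the nc library (log2 ratio -0.57), just short of 1.5-fold. SNRNP48 had 10.4 and 13.5 FPKM in the oe and nc libraries (-0.35). SNRNP25 overlaps POLR3K, a subunit of RNA polymerase III, on the opposite strand. POLR3K had 16.1 FPKM in the oe library and 42.4 FPKM in the nc library (-1.34), lower together with its neighbour. A stranded library kit is named in the labels, but the use of strand in counting was not given in the sources used here.

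Of the 10 exosome subunits, 3 were at least 1.5-fold lower (30%, against 15.2% of all genes). By that much 0 were higher, against 15.3% of all genes, and the median log2 ratio was -0.53. All 3 belong to the barrel. EXOSC9 (ENSG00000123737.12_3, chromosome 4, 122722472 to 122738176, plus strand) had 5.12 FPKM in the oe library and 9.42 FPKM in the nc library (-0.77), the lowest ratio of the complex. EXOSC9 overlaps the cyclin gene CCNA2 on the opposite strand, which had 2.51 and 19.5 FPKM in the oe and nc libraries, and what CCNA2 reads add to the EXOSC9 value was not tested. EXOSC4, the most abundant subunit in the nc library, had 13.6 FPKM in the oe library and 21.5 FPKM in the nc library (-0.63). EXOSC5 had 5.67 and 9.09 FPKM in the oe and nc libraries (-0.60). EXOSC4 and EXOSC5 were short of 1.5-fold with the libraries scaled to the same FPKM sum or 75th percentile.

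The rest of the barrel lay on both sides of 0. EXOSC7 had 12.7 FPKM in the oe library and 19.1 FPKM in the nc library (log2 ratio -0.55), and EXOSC8 had 7.92 and 12.02 FPKM in the oe and nc libraries (-0.55). EXOSC6 had 16.5 FPKM in the oe library and 15.99 FPKM in the nc library (0.04), so that EXOSC6 was the most abundant subunit in the oe library but not in the nc library. EXOSC6 was 3.23 times EXOSC9 in the oe library and 1.70 times in the nc library.

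In the cap, EXOSC2 had 6.82 FPKM in the oe library and 9.83 FPKM in the nc library (log2 ratio -0.47), and EXOSC3 had 6.12 and 9.14 FPKM in the oe and nc libraries (-0.51). EXOSC1, the third cap subunit, was the opposite, at 11.6 FPKM in the oe library and 8.69 FPKM in the nc library (0.38). EXOSC1 was the least abundant subunit in the nc library and was 1.13 times the median of the barrel in the oe library, against 0.621 times in the nc library. EXOSC10, the nuclear 3′ exonuclease bound to the complex, had 10.2 FPKM in the oe library and 11.4 FPKM in the nc library (-0.15).

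The 19 members past 1.5-fold here are the same 19 that the authors' deposited table of lower genes holds. The authors' deposited table of higher genes holds 0 members. For these genes the authors' log2 fold changes equal those used here and the size was the same, so the match is no independent check. The members next to the 1.5-fold limit were EXOSC5 and LSM6 (both -0.60) inside it and SNRNP35 (-0.57) and SNRPC (-0.56) outside it.

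Ribosomal protein genes, which are also short and widely expressed, had negative medians too. Of 78 mitochondrial ribosomal protein genes, 34 were at least 1.5-fold lower (43.6%), their median log2 ratio being -0.54. Of 83 cytosolic ribosomal protein genes 9 were (10.8%), with a median of -0.41. The 19 of 41 members (46.3%) and their median of -0.56 lay near the mitochondrial set. Of 44 DNA replication genes, 36 were at least 1.5-fold lower (81.8%), with a median of -1.42. All 25 genes of a proliferation list were lower by 2-fold or more, with a median of -2.17, among them MKI67 at 1.15 FPKM in the oe library and 8.70 FPKM in the nc library. The part of fewer dividing cells in the members' values was not tested, and in a bulk library fewer cells of a type and less RNA per cell cannot be told apart.

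**Figure D3:**
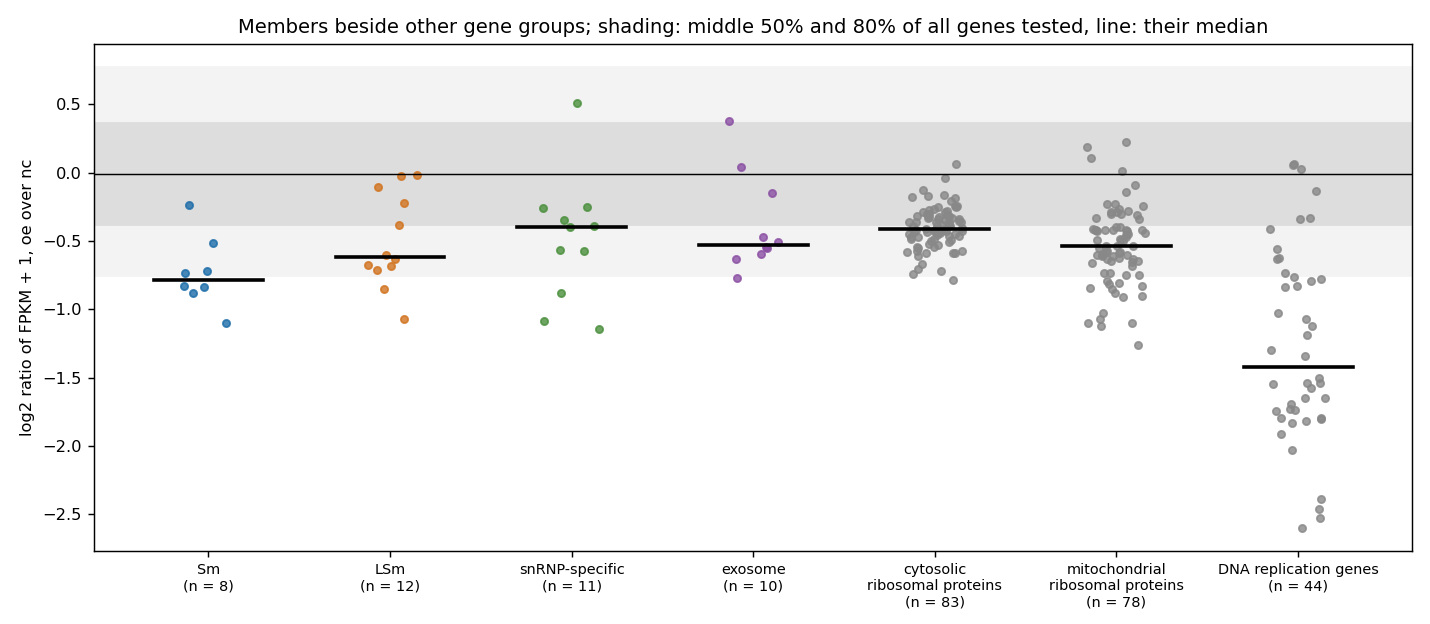
Log2 ratio of FPKM + 1, oe over nc, for each counted gene of the 4 member groups and of 3 other gene sets, with a black bar at the median of each set, shading over the middle 50% and 80% of all genes and a thin line at their median. The member medians run from -0.78 for Sm, below both ribosomal sets (-0.41 and -0.54), to -0.40 for the snRNP-specific group. All lie above the replication genes (-1.42).

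Genes with short coding sequences were lower more often than those with long ones, and most members are short. The median longest coding length in GENCODE 29 was 697.5 bases for members and 1380.0 bases for all listed genes. In the quintile of genes with the shortest coding sequences (735 bases or less) 25.4% were at least 1.5-fold lower, their median log2 ratio being -0.27. In the quintile with the longest (2448 bases or more) 8.54% were, with a median of 0.21. Of the members in the shortest quintile, 16 of 25 were at least 1.5-fold lower (64.0%), with a median of -0.64. Abundant genes were also lower more often, with 21.4% of the most abundant quintile of all genes at least 1.5-fold lower (median -0.24). Across the 41 members the ratio was higher at longer coding length (Spearman rho 0.45, as a description across genes of the same 2 libraries), against 0.27 across 11057 genes.

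With each log2 ratio centred on genes of like coding length and level, 6 of 41 members were at least 1.5-fold lower (14.6%), beside 12.6% of all genes, and the members' median was -0.34. These 6 were SNRPA (-0.96), SNRNP25 (-0.80), EXOSC9 (-0.79), SNRPD2 (-0.72), SNRPA1 (-0.70) and LSM2 (-0.69). EXOSC1 was past 1.5-fold in the other direction (0.66). The share past 1.5-fold is thus close to that of all genes on this scale, which was chosen after the data were seen, while 33 of 41 members were below 0.

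**Figure D4:**
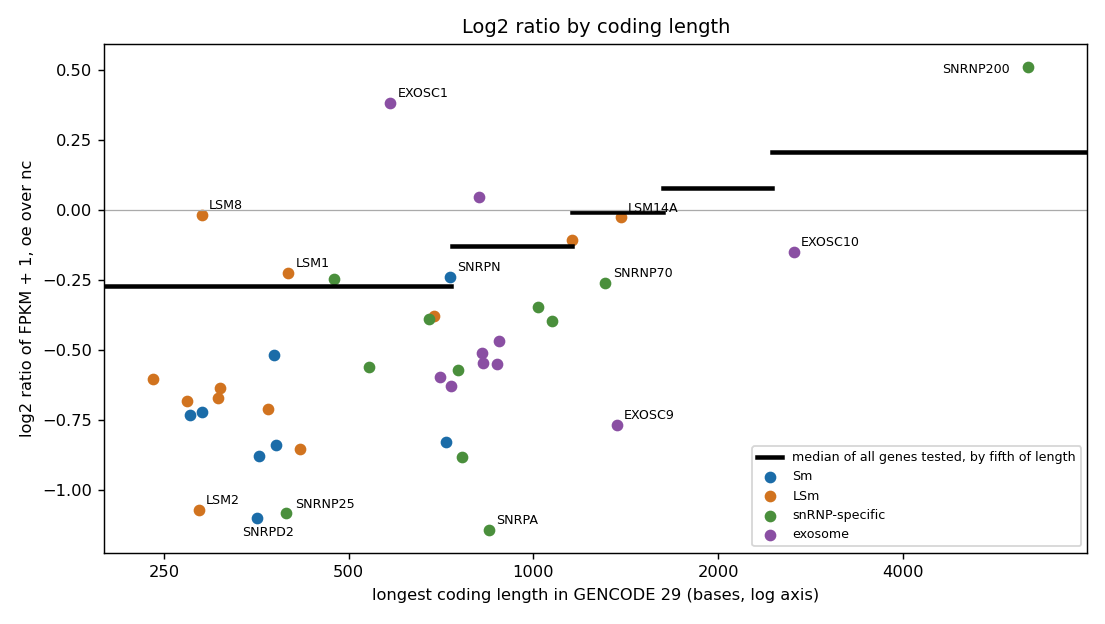
Log2 ratio of FPKM + 1, oe over nc, of the 41 counted members against their longest coding length in bases on a log axis, coloured by group, with black lines at the median of all genes in each quintile of coding length. The lines climb from -0.27 to 0.21 with length, and most members lie below the line of their own quintile, with EXOSC1, SNRNP200, LSM8, EXOSC6, LSM1, SNRPN, LSM14B and SNRNP27 above it.

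Partners of these complexes were read from lists of other genes. A list of 22 genes covered snRNP assembly, the pathway in which the SMN complex and a methylation complex load Sm proteins onto snRNA. Cofactors of the methyltransferase PRMT5 stood on the list too, whether or not they act in that pathway. Of the 22, 4 were at least 1.5-fold lower (18.2%, against 15.2% of all genes) and 0 higher, their median log2 ratio being -0.31. COPRS, a cofactor of the methyltransferase PRMT5, had 30.6 FPKM in the oe library and 59.6 FPKM in the nc library (-0.94). PRMT5 itself, which methylates Sm proteins, had 17.7 and 27.9 FPKM in the oe and nc libraries (-0.63). GEMIN6, at 3.20 and 6.19 FPKM in the oe and nc libraries (-0.78), and GEMIN2, at 3.71 and 6.07 FPKM (-0.59), are subunits of the SMN complex.

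Of 34 other core spliceosome proteins, 3 were at least 1.5-fold lower (8.82%, against 15.2% of all genes) and 2 higher by that much (5.88%), their median log2 ratio being -0.24. PPIH, a cyclophilin of the tri-snRNP, had 15.5 FPKM in the oe library and 30.7 FPKM in the nc library (-0.94). ZCRB1, a protein of the minor spliceosome, had 34.4 and 61.2 FPKM in the oe and nc libraries (-0.81), and TXNL4A, a small U5 protein, had 15.7 and 25.5 FPKM (-0.67). SF3B1, the large branch-point subunit of U2, was higher, at 34.9 FPKM in the oe library and 21.1 FPKM in the nc library (0.70). PRPF3, a U4/U6 protein, was also higher, at 16.6 and 10.3 FPKM in the oe and nc libraries (0.64). Of 10 genes of histone mRNA 3′ processing, where LSM10 acts, 1 was at least 1.5-fold lower (10%, against 15.2% of all genes). It was SLBP, the histone stem-loop binding protein, at 14.02 FPKM in the oe library and 28.5 FPKM in the nc library (-0.97).

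Partners of RNA decay had positive medians, with shares past 1.5-fold near those of all genes in the higher direction. Of 15 exosome partners, 1 was at least 1.5-fold lower and 3 higher by that much (20.0%, against 15.3% of all genes), their median log2 ratio being 0.24. MPHOSPH6, a nuclear exosome cofactor, had 28.9 FPKM in the oe library and 45.0 FPKM in the nc library (-0.62). ZFC3H1, at 4.86 and 2.37 FPKM in the oe and nc libraries (0.80), PAPD5, at 3.46 and 1.66 FPKM (0.75), and RBM7, at 2.62 and 1.26 FPKM (0.68), recruit RNA to the nuclear exosome or tail it for decay. Of 11 genes of decapping and 5′ decay, where the LSM1 ring acts, 0 were lower by 1.5-fold and 2 were higher by it (18.2%), with a median of 0.17. These were the 5′ exonucleases XRN2, at 37.4 FPKM in the oe library and 22.3 FPKM in the nc library (0.72), and XRN1, at 6.22 and 3.53 FPKM in the oe and nc libraries (0.67). The exosome partners and the decay genes are longer than the members, with median coding lengths of 2121.0 and 1851.0 bases, and the part of length in these values was not tested.

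**Figure D5:**
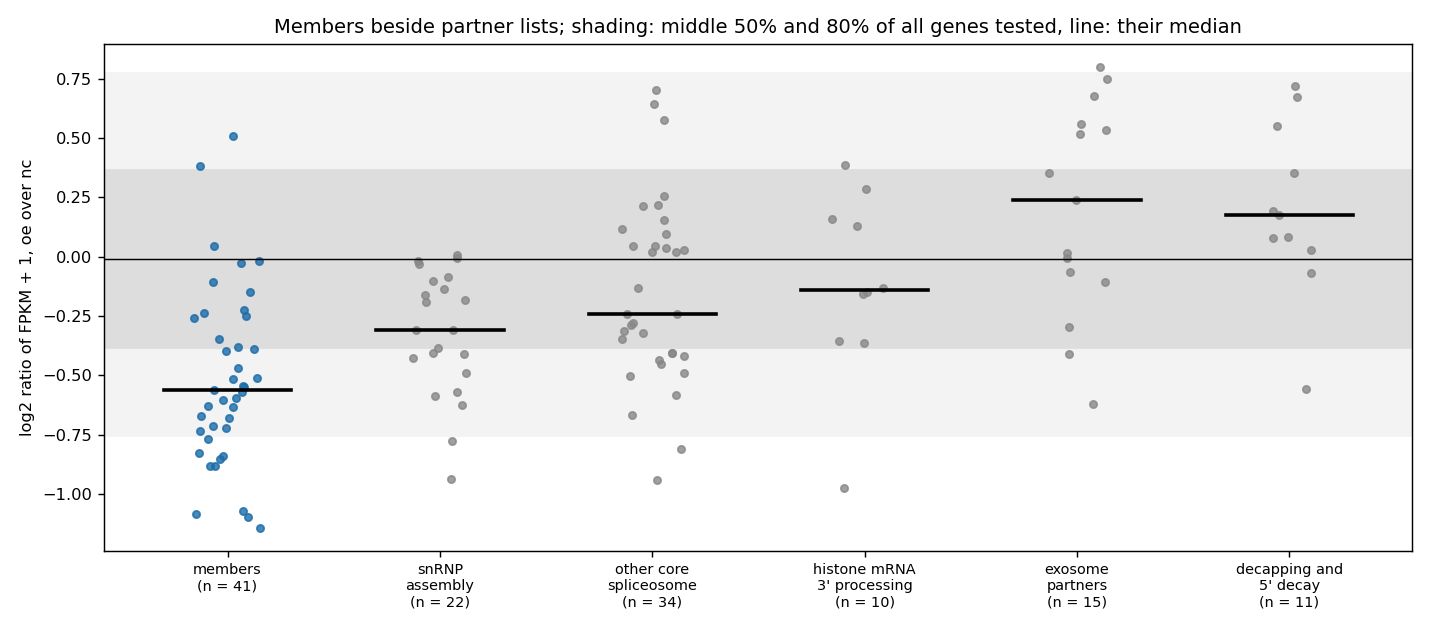
Log2 ratio of FPKM + 1, oe over nc, for the 41 counted members and 5 lists of partner genes, with a black bar at the median of each, shading over the middle 50% and 80% of all genes and a thin line at their median. The members lie lowest (-0.56), followed by snRNP assembly (-0.31), and the exosome partners (0.24) and decay genes (0.17) lie above the line.

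For the libraries as a whole, FPKM summed to 198520 in the oe library and 216207 in the nc library. All 10 LNCaP markers were listed, and 6 were lower by 2-fold or more in the oe library. KRT8 had 38.1 and 39.2 FPKM in the oe and nc libraries and EPCAM had 43.1 and 44.9 FPKM. Of 20 macrophage markers, 14 were not analysed here. The 6 listed summed to 964 FPKM in the oe library and 1.77 FPKM in the nc library, and none was at 0. All 6 were higher in the oe library. No listed gene had less than 0.50 FPKM in its higher library. CD74, CTSS, ITGAM and LYZ lay under that in the nc library, so they could be listed only by being higher in the oe library. HLA-DRA had 700.0 FPKM in the oe library and 0.962 FPKM in the nc library, and CD74 had 251 and 0.0923 FPKM in the oe and nc libraries, so that these genes of antigen presentation made up most of the sum. CTSS had 5.87 and 0.0409 FPKM in the oe and nc libraries, CD68 had 4.18 and 0.632 FPKM, ITGAM had 2.34 and 0.00787 FPKM, and LYZ had 0.603 and 0.0382 FPKM. The part of macrophage RNA in the members' values was not tested.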

How the data were processed

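RNA-seq of LNCaP was deposited as FPKM for 12075 protein-coding genes, per the file headers, with StringTie 2.1.0 named in the submitters' processing notes. As for the aligner, it was not given in the sources used here. These notes name the mouse build mm10, but identifiers and coordinates are human: 11946 identifiers carry the suffix of annotation mapped to GRCh37, and 97 of 11995 found in GENCODE 29 (GRCh38) have the same start and end. The authors' tables of changed genes hold log2 fold changes and linear fold ratios, per the file headers. The authors' p-values are all 1 and were not used. Each library began from 2 ug of total RNA per the labels' protocols, with poly(A) selection, ribosomal RNA depletion and stranded kits named.

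Log2 ratios used a pseudocount of 1, which understates differences of low genes, and the 11126 genes whose higher value was 1 FPKM or more. Sizes of 1.5-fold and 2-fold are not tests. Coding lengths came from GENCODE 29 (11985 genes) and promoters from RefSeq. All members are named with values, and for partner lists at most 4 genes past 1.5-fold. MKI67, KRT8, EPCAM, CD68, LYZ, HLA-DRA, CD74, CTSS, ITGAM, PRPF3, SNURF, MXD1, POLR3K and CCNA2 were chosen after their values were seen. Members and lists were chosen with earlier results of these data known. 1 Y-linked gene was left out of the ribosomal set. Python 3.11.15, pandas 2.3.3 and scipy 1.17.1 were used.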

Additional observations from a re-analysis of the deposited data

How the results depend on the processing

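The 4 group medians and the median of all members stayed negative under all 11 alternatives. Another pseudocount (0.1 or none), another filter on low values and scaling to the same 75th percentile or median were tried. So was leaving out the 5 members with a same-strand overlap or a near-identical listed copy (EXOSC7, SNRNP27, SNRPB, SNRPD3 and SNRPN). These gave medians of all members from -0.60 to -0.52, with 16 to 22 members at least 1.5-fold lower. The share of all genes lower by that much ran from 13.8% to 19.0%. Scaling to the same FPKM sum put the median of all genes at 0.09, against -0.01, and that of all members at -0.44 (Sm -0.66, LSm -0.51, snRNP-specific -0.28, exosome -0.42). With it 1 member was higher by 1.5-fold, beside 18.8% of all genes, and 1 lower by 2-fold, beside 4.74%. Of the alternatives chosen after seeing the data, centring on genes of like level gave -0.44 (Sm -0.47, LSm -0.41, snRNP-specific -0.25, exosome -0.50). The exosome median was then the lowest of the 4 groups, in place of that of the Sm group. With this centring 12 of 41 members were at least 1.5-fold lower (29.3%, beside 14.1% of all genes) and 1 higher, beside 15.2% of all genes. Lower by 2-fold was 1 member, beside 5.73% of all genes. Centring on genes of like coding length and level gave -0.34 (Sm -0.40, LSm -0.27, snRNP-specific -0.18, exosome -0.37). There 6 members were at least 1.5-fold lower, beside 12.6% of all genes, and 1 higher, beside 14.5%. At least 2-fold lower were 0 members, beside 5.28% of all genes. The signs of LSM8, LSM14A, LSM14B, SNRPN and LSM1 turned under some scalings or centrings, none past 1.5-fold. The cause of these shifts was not tested. No paired analysis was possible because each group has 1 library, and for the same reason no library could be left out. Unknown read depth leaves the error of every FPKM value unknown.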
